A study of Mus musculus with 12 samples.

Results

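The regions described here are distal BATF regions with an AP-1 site. Peaks of the 4 BATF ChIP-seq libraries, called against input and IgG together according to the names of the lists, were pooled, and peaks sharing at least 1 bp were merged into 5873 regions. The summit of a region was that of its peak with the highest −log10 q, where q is the false discovery rate of the peak. A region was a member if its summit lay more than 2 kb from every curated RefSeq start site and if a 7-bp AP-1 site, TGACTCA or TGAGTCA, lay wholly within 100 bp of the summit. Of the 5873 regions 5530 were distal, and 920 of these had an AP-1 site (16.6%, exact 95% binomial interval 15.7% to 17.6%). The other 4610 distal regions had none, and 343 regions lay closer to a start site.

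Naive CD4+ T cells of C57BL6/J mice were differentiated in culture for 5 days and chromatin was immunoprecipitated with an antibody to BATF. Th9 cells were cultured with IL-4, TGF-β1, IL-2 and antibody to IFNγ, and Th17 cells with IL-6, TGF-β1, IL-23, IL-1β and antibodies to IFNγ, IL-4 and IL-2, all on anti-CD3 with anti-CD28. The labels number the BATF libraries 1 and 2 (Th9) and 3 and 4 (Th17), and each has an input and an IgG library of its own number. The sources used here do not say whether the libraries of a cell type came from separate mice, so the spread between them may be technical. The lists hold no read counts, and the study's methods give the reads per library only as an approximate number, so the depth of single libraries is not known here.

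BATF is a basic leucine zipper protein of the AP-1 family. It has no activation domain of its own and binds DNA as a dimer with a JUN protein, at the palindromic AP-1 site. In T cells the dimer also binds together with IRF4 or IRF8 at composite elements, in which an IRF core, GAAA, lies either directly beside the AP-1 site or 4 bases away from it on the other strand. Both forms of the AP-1 site are reverse complements of each other, so each site was counted once.

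The following sequences show what the members look like. All are from the plus strand of mm10 (GRCm38), with AP-1 sites in capitals. The first 4 are from the 12 members that all libraries called, and each is centred on the AP-1 site nearest to the summit.
Arhgef3, chr14:27384243-27384303: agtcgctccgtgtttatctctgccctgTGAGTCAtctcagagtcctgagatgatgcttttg
F830010H11Rik, chr6:47621192-47621252: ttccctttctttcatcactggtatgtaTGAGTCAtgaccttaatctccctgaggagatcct
Neu3, chr7:99833900-99833960: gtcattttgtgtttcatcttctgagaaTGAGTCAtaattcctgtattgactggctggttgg
Chd2, chr7:73503603-73503663: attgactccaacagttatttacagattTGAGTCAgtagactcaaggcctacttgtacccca

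The next 6 carry an IRF core in one of the known arrangements, also in capitals, and had the highest mean −log10 q among such members called in 2 or more libraries. The region nearest to Gpr15 and the one in Gnptab have the core 4 bases away, and the others have it directly beside the site.
Il13, chr11:53657053-53657113: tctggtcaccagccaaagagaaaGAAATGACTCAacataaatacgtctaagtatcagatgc
E130308A19Rik, chr4:59682643-59682703: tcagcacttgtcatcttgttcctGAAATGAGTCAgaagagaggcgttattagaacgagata
Enpp6, chr8:46941468-46941528: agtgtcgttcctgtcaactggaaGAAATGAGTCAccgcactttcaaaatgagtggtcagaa
Dthd1, chr5:62815868-62815928: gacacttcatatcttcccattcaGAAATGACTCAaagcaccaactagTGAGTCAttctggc
Gpr15, chr16:58696985-58697045: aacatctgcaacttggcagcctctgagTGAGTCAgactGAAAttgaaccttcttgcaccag
Gnptab, chr10:88405907-88405967: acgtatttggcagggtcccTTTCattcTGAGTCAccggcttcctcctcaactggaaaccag

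The last 3 are the members with the most AP-1 sites, shown for the whole window of 100 bp to either side of the summit.
Gmpr, chr13:45623928-45624128: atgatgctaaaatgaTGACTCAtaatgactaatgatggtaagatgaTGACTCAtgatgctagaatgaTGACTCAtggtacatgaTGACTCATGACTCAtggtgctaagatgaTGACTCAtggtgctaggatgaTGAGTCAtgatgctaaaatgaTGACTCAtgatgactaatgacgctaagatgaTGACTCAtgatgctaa
LOC100043315, chr15:95276706-95276906: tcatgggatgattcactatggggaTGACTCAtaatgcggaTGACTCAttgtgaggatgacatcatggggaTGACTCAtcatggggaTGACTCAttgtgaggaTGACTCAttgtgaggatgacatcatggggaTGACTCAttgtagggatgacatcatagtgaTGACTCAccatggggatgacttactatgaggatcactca
Twsg1, chr17:65961543-65961743: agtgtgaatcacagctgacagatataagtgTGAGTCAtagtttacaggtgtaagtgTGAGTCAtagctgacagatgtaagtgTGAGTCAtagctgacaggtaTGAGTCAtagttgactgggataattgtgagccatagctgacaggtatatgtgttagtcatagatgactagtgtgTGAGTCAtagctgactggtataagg

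The members were spread unevenly over the libraries. Th17 library 3 called 713 of them, Th9 library 1 called 241, Th17 library 4 called 79 and Th9 library 2 called 70. Library 3 also supplied the summit of 676 of the 920. Members were 18.5% of the distal regions of Th17 library 3 (interval 17.3% to 19.7%) and 14.9% of those of Th9 library 1 (13.2% to 16.8%). In the libraries with few peaks the shares were higher, at 41.8% in Th17 library 4 (34.7% to 49.2%) and 30.8% in Th9 library 2 (24.9% to 37.3%). Because 2 libraries against 2 cannot reach an exact permutation p below 0.333, no difference between Th9 and Th17 cells was tested. Without Th17 library 3 there were 324 members.

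By cell type, 642 members were called in Th17 cells only (69.8%, against 67.5% of other distal regions), 177 in Th9 cells only (19.2% against 30.4%) and 101 in both (10.98% against 2.04%). Th17 library 3 alone called 594 of the 642, and Th9 library 1 alone called 151 of the 177. Among other distal regions these libraries alone called 3030 of 3114 and 1288 of 1402. A missing call means only that a region was below the threshold in that library. The most frequent combination of libraries was Th9 library 1 with Th17 library 3, with 44 members called by these and no other library, followed by the pair of Th17 libraries with 23. The pair of Th9 libraries alone called 5. All 4 libraries called 12 members.

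Members were called again more often than distal regions without an AP-1 site. Of the 920 members 129 were called in 2 or more libraries (14.0%), against 132 of 4610 other distal regions (2.86%; two-sided Fisher's exact test, adjusted p = 3.31e-36). In both cell types 101 members were called (10.98%), against 94 others (2.04%; same exact test, adjusted p = 9.86e-31), and without Th9 library 1 this difference was 4.41 instead of 8.94 points. Over all 5873 regions the shares were 4.73% and 3.58%. Regions are not independent replicates, since all come from the same 4 libraries, and these p-values cover counting error only.

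Peaks of members were stronger, and the difference was smaller within ranges of strength. Among regions whose highest −log10 q was 8 or more, 30.8% of members and 24.3% of others were called in 2 or more libraries (6.49 points, exact test, adjusted p = 0.0550 over the 6 tests within ranges). From 5 to 8 the shares were 4.92% and 2.16% (2.77 points, exact test, adjusted p = 0.0457), and under 5 they were 1.04% and 0.218% (0.820 points, exact test, adjusted p = 0.0550). For both cell types, by the same exact test, they were 24.5% and 17.8% (adjusted p = 0.0457), 3.03% and 1.33% (adjusted p = 0.101), and 1.04% and 0.156% (adjusted p = 0.0457) in that order. The highest −log10 q tends to rise with the number of libraries that called a region, so these ranges do not separate strength from the number of calls.

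With regions grouped by their −log10 q in Th17 library 3 alone, 3.03% of members and 0.530% of others under 5 were called in another library, 9.95% and 3.43% from 5 to 8, and 30.3% and 23.7% at 8 or more (intervals 25.1% to 35.8% and 19.3% to 28.5%). In Th9 library 1 these shares were 20.4% and 2.13%, 38.4% and 10.1%, and 57.3% and 42.9%. In Th9 library 2 they were 27.8% and 14.6%, 86.7% and 39.3%, and 83.8% and 84.8%, and in Th17 library 4 53.3% and 15.7%, 56.3% and 65.5%, and 87.5% and 90%. This grouping by single libraries was chosen after seeing the data and was not tested.

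Within each library, members were also called again more often. In Th9 library 1, 37.3% of its members and 6.26% of its other distal regions were called in another library. The shares were 70.0% and 33.8% in Th9 library 2, 16.7% and 3.75% in Th17 library 3, and 68.4% and 49.1% in Th17 library 4. The intervals overlapped in Th17 library 4 and in none of the other 3.

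**Figure D1:**
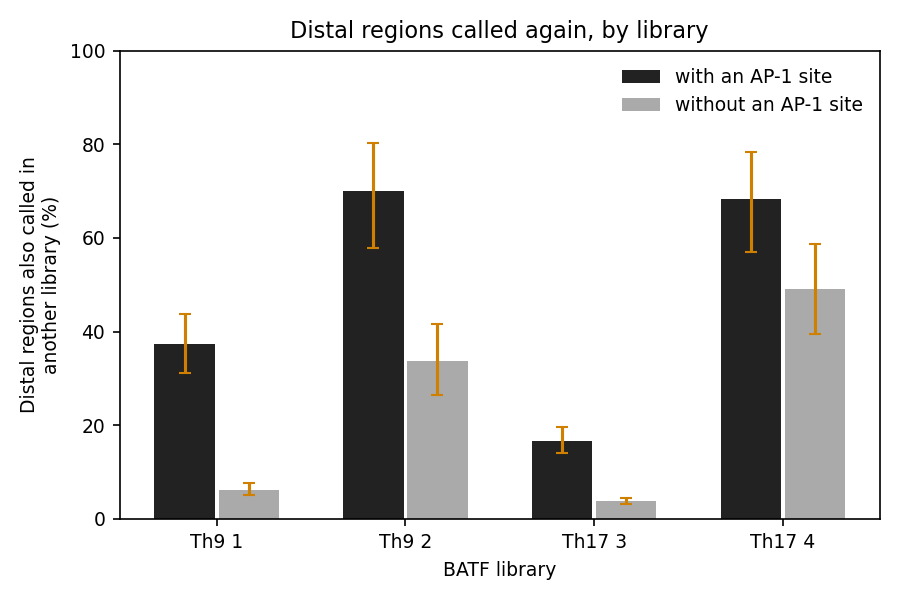
Share of the distal regions of each BATF library that another library also called, for regions with (black) and without (grey) an AP-1 site within 100 bp of the summit. Bars start at 0 and lines are exact 95% binomial intervals; members were higher in each library, from 16.7% against 3.75% in Th17 library 3 to 70.0% against 33.8% in Th9 library 2.

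Of the members called in all 4 libraries, the one in an intron of Arhgef3, a guanine nucleotide exchange factor, had fold enrichments of 18.1 and 10.5 in Th9 libraries 1 and 2 and of 19.8 and 12.97 in Th17 libraries 3 and 4. Fold enrichment is the number of fragments at a summit divided by the local background, and its levels are not compared between libraries. A region between genes, 26043 bp downstream of the start of F830010H11Rik, had 16.6, 9.07, 20.3 and 10.8 in libraries 1 to 4. These 2 were the strongest members of Th9 library 1, followed by 4 with an equal fold enrichment of 13.1, nearest to Sc5d, an enzyme of cholesterol synthesis, Mrps28, Themis and Gpr15.

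The region nearest to Neu3, a sialidase, lay 5558 bp upstream of its start and had fold enrichments of 8.45, 10.7, 16.2 and 7.02. In an intron of Chd2, a chromatin remodeller, the values were 5.85, 5.87, 12.1 and 6.48. Other members of this kind lay in introns of Atxn1 (nearest start site Gmpr), Osbpl9, Hormad2 and Man1a, and between genes near Cetn4, Twsg1 and B3galt2.

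Some strong members were not called in every library. The highest fold enrichment of Th17 library 3, 23.7, was at a region 14515 bp downstream of Gm17746, which Th17 library 4 also called at 16.2 and neither Th9 library called. In an intron of Pptc7, a mitochondrial phosphatase, Th17 library 3 had 20.9 and Th9 library 1 had 8.85. An intron region of Chtf8 had 11.2 in Th9 library 2 and no call in the others, and one in an intron of Slc17a8 had 11.4 in that library and 8.47 and 5.64 in Th17 libraries 3 and 4.

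In each library the peaks of members were stronger than those of other distal regions. The median fold enrichments were 6.84 and 5.52 in Th9 library 1, 8.19 and 5.87 in Th9 library 2, 7.34 and 5.35 in Th17 library 3, and 8.11 and 6.65 in Th17 library 4. The median −log10 q was 6.42 against 3.82, 8.75 against 4.62, 7.04 against 4.12 and 7.93 against 5.76 in the same order. The fold enrichments took few distinct values, 145 among the 713 member peaks of Th17 library 3, of which 55 shared a single value, which rounds to 7.34.

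**Figure D2:**
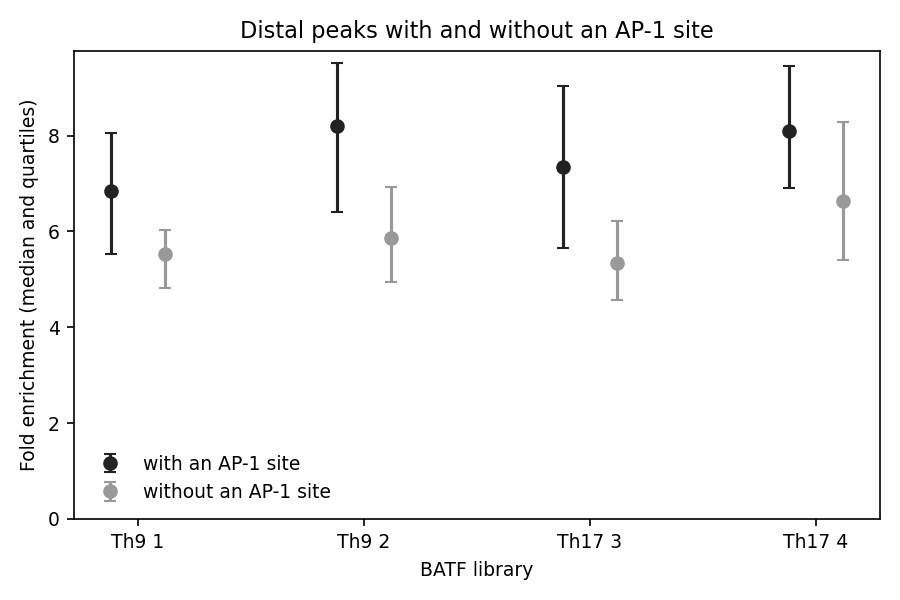
Fold enrichment of distal peaks with (black) and without (grey) an AP-1 site in each BATF library, as the median with the lower and upper quartile. The median of members was the higher one in each library, for example 7.34 against 5.35 in Th17 library 3, and levels are not comparable between libraries.

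Most members had a single AP-1 site. There were 1099 sites in all, with 1 site in 770 members (83.7%), 2 in 134 and 3 in 12. The remaining 4 members had 4, 5, 7 and 9 sites. Members held 2 or more sites in 150 cases (16.3%, interval 14.0% to 18.9%). Of the windows 2 kb to either side of a member that held a site, 1 of 68 held more than 1 (1.47%, interval 0.0372% to 7.92%; two-sided Fisher's exact test, adjusted p = 0.000178). Within 50 bp the shares were 11.8% and 0%, and the difference was no longer past the threshold (11.8 points, exact test, adjusted p = 0.0997). In members with exactly 2 sites, the centres were a median of 43 bp apart, from 7 to 154 bp.

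The members with the most sites are arrays of a short repeated unit, as the printed sequences show. The region in an intron of Atxn1, nearest to Gmpr, had 9 sites in the window, and none of its bases there were masked as repeats. Its fold enrichment was 46.3 with a −log10 q of 133.8 in Th17 library 4, and 7.51, 6.66 and 7.34 in libraries 1, 2 and 3. The array in an intron of Nell2, nearest to the start of LOC100043315, had 7 sites and was called in Th9 library 1 at 6.03 and in Th17 library 4 at 9.19. The one upstream of Twsg1, a secreted binding protein of BMPs, had 5 sites and was called in all libraries, at 7.15, 10.1, 13.6 and 14.6. Each array stands in a single region, and its sites are not independent of each other.

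The AP-1 sites lay close to the summits. The nearest site was a median of 30 bp from the summit, covered the summit base in 57 members and had its centre within 25 bp in 410 (44.6%). Of all 1099 sites within 100 bp of a distal summit, 439 were centred within 25 bp (39.9%, interval 37.0% to 42.9%), against 98 of 391 sites in windows 2 kb away (25.1%, interval 20.8% to 29.7%; two-sided Fisher's exact test, adjusted p = 2.38e-07). Sites lay evenly on either side, 546 at a lower and 547 at a higher coordinate. Over all distal regions there were 1.45 and 1.27 sites per kb in the 50 bp before and after the summit. From −1000 to −951 bp there were 0.174 per kb.

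By library, 48.1%, 52.9%, 44.0% and 44.3% of members had a site within 25 bp of the region's summit in libraries 1 to 4. That summit can come from a peak of another library. The share of members with 2 or more sites was 13.7%, 25.7%, 16.97% and 24.1%. It was higher in the smaller library of each cell type.

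**Figure D3:**
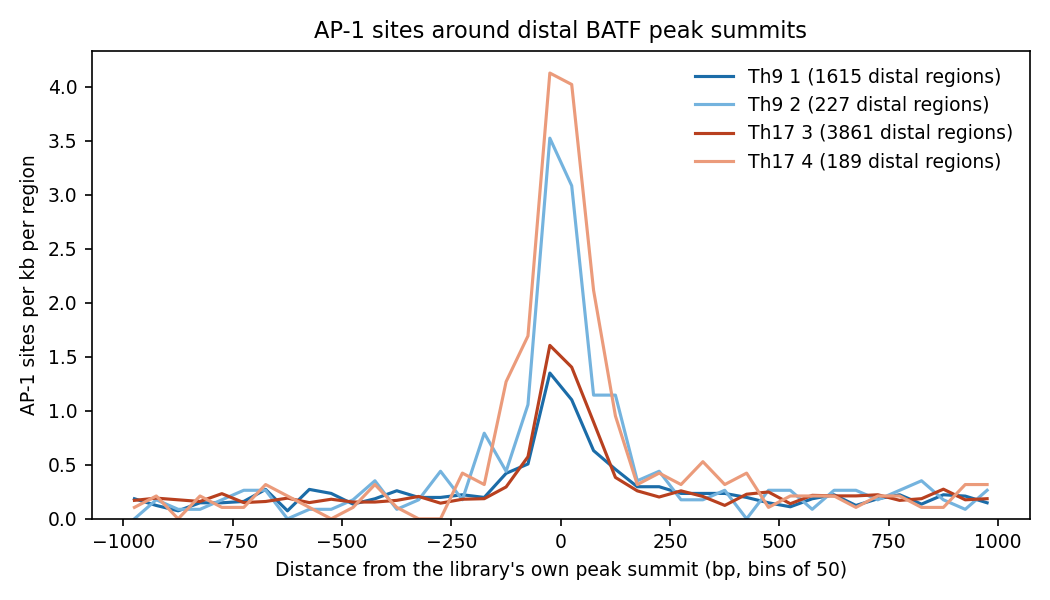
AP-1 sites per kb per distal region, in bins of 50 bp, by distance from each library's own summit, for the 4 BATF libraries. The sites peak at the summit in each library and reach 4.13 per kb in Th17 library 4, which has 189 distal regions, and 1.61 per kb in Th17 library 3, which has 3861.

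At the edges of the rule, the member closest to a start site was 2150 bp from that of Zmynd11, and the region with an AP-1 site closest to the limit on the other side was 1901 bp from that of Myct1. The member whose nearest site was farthest had it centred 97 bp from the summit, and 8 other distal regions had one centred at 98 bp, just outside the window.

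The bases next to the site were compared with those of 414908 other distal AP-1 sites of the genome that lay in no BATF region. Sites were read with G at the centre, and a pair of bases and its reverse complement formed 1 class. A before and T after the site, which extends the palindrome to ATGAGTCAT, was found at 122 of the 1099 member sites (11.1%, interval 9.30% to 13.1%) and at 5.98% of the other sites (two-sided Fisher's exact test, adjusted p = 1.19e-09 over 10 classes). Without the 4 members of 4 or more sites, chosen after seeing the data, it was 9.87% (exact test, adjusted p = 4.15e-06). Without Th17 library 3 it was 14.3% against 5.98%, a difference of 8.34 instead of 5.12 points.

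Of the 10 classes 8 passed the test (80%). By the same exact test, A before with C after (15.1% against 9.67%, adjusted p = 5.99e-08) and A before with G after (22.4% against 17.3%, adjusted p = 4.67e-05) were also more frequent in members. A before with A after did not pass the exact test (12.01% against 11.7%, adjusted p = 0.778), nor did G before with C after (5.64% against 6.40%, adjusted p = 0.393). The class of A before with A after joins ATGAGTCAA (4.09% against 5.18%) and TTGAGTCAT (7.92% against 6.54%), which were not tested singly. By the exact test, C before with A after was less frequent in members (8.01% against 12.6%, adjusted p = 4.41e-06), as did C before with G after (6.37% against 9.47%, adjusted p = 0.000587), C before with C after (10.1% against 13.6%, adjusted p = 0.000953), G before with A after and T before with A after. Of the member sites and the 414908 other sites together, 264.2 in 100000 were member sites, from 167.5 in the class with C before and A after to 489.5 in the class with A before and T after.

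The share of members with A before and T after was 12.9%, 22.9%, 11.8% and 15.2% in libraries 1 to 4. Of members called in both cell types 20.8% had such a site, against 10.6% of those in Th17 cells only and 9.60% of those in Th9 cells only. These shares were not tested.

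The known arrangements of AP-1 with an IRF core were both more frequent at member sites. The core lay directly beside the site, reading GAAA toward it, at 46 of the 1099 sites (4.19%, interval 3.08% to 5.54%), against 1.66% of the other distal sites (two-sided Fisher's exact test, adjusted p = 9.32e-07 over 26 arrangements). The base before such a site is A by construction, so these sites are also among those with A beside them. Without Th17 library 3 the shares with the core directly beside the site were 6.03% and 1.66%, a difference of 4.37 instead of 2.53 points. The core lay 4 bases away, on the other strand, at 31 sites (2.82%, interval 1.92% to 3.98%), against 1.32% (same exact test, adjusted p = 0.00203). Of the 26 arrangements 4 passed (15.4%). By the exact test, the others were spacings of 6 (2.91% against 1.54%, adjusted p = 0.00683) and 12 bases (2.46% against 1.32%, adjusted p = 0.0207), in the orientation of the arrangement with 4.

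**Figure D4:**
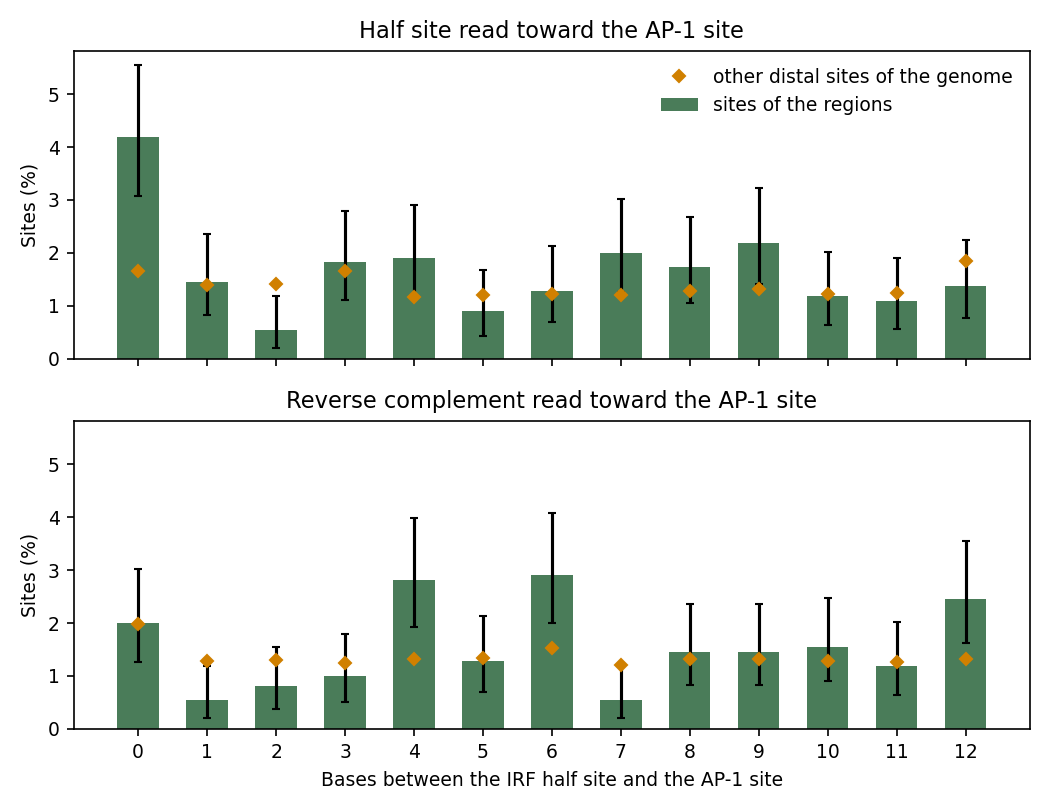
Share of AP-1 sites with an IRF core at each spacing from 0 to 12 bases, read toward the site (top) or with its reverse complement read toward the site (bottom). Bars are the sites of members with exact 95% binomial intervals and diamonds the other distal sites of the genome; spacing 0 at the top stands at 4.19% against 1.66%, and spacings 4 and 6 at the bottom at 2.82% and 2.91%.

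In all, 75 members (8.15%) had the core in at least one known arrangement, 45 directly beside a site, 31 at 4 bases and 1 both. Of these 75, 16 were called in 2 or more libraries (21.3%), and of the members without a core 113 (13.4%), a difference that was not tested. Among members called in both cell types 10 of 101 had the core directly beside a site (9.90%). In Th9 cells only it was 12 of 177 (6.78%) and in Th17 cells only 23 of 642 (3.58%). For the core 4 bases away the shares were 3.96%, 3.95% and 3.12% in the same order. These shares were not tested, and most members called in a single cell type were called by a single library.

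The region nearest to Il13, an effector cytokine of type 2 immunity, lay in an intron of Rad50, 22347 bp upstream of the Il13 start. It had a fold enrichment of 12.5 in Th9 library 1 and 10.7 in Th17 library 3. The region nearest to Gpr15, a homing receptor of T cells for the colon, was called in both Th9 libraries, at 13.1 and 10.7, and in neither Th17 library. The region in an intron of Gnptab had 6.18 in Th9 library 2 and 16.4 in Th17 library 3. Those in Dthd1 and upstream of Enpp6 were each called in 3 libraries, without Th9 library 2.

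Other motifs were searched on both strands of the same windows, outside the AP-1 sites, and 2 of 15 differed between members and other distal regions (13.3%). The RUNX motif, TGTGGT, was present in 22.4% of members (interval 19.7% to 25.2%) and 16.6% of the others (interval 15.5% to 17.7%; two-sided Fisher's exact test, adjusted p = 0.000529). In windows 2 kb away it was present in 15.3% and 14.3%. Members had the higher share in each library, at 21.6% against 15.7%, 20% against 18.5%, 22.6% against 17.1% and 30.4% against 19.1%. At a minimum −log10 q of 5 the shares were 23.6% and 19.9% and did not pass the exact test (adjusted p = 0.180), and without Th17 library 3 they were 23.1% and 16.3% and did not pass either (adjusted p = 0.0576). RUNX proteins are needed throughout T cell development.

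The NF-kB motif was present in 3.48% of members and 1.95% of the others (exact test, adjusted p = 0.0484), and in 1.52% and 1.42% of the windows 2 kb away. The motif was less frequent in members than in others in Th17 library 4, at 1.27% against 2.73%, and more frequent in the other libraries. The difference did not pass in 6 of the 7 alternatives, at 1.29 to 1.87 points in 4 of them, 0.415 in 50 bp windows and 0.0671 without Th17 library 3, against 1.53 in the main analysis. The ETS motif, AGGAAG, was found in 25.5% of members and 22.8% of the others, and the SMAD motif, CAGACA, in 17.9% and 16.9%. In 50 bp windows these differences were −0.777 and −1.09 points, and without Th17 library 3 that of SMAD was −0.828. The NFAT motif, TGGAAA, was found in 18.8% and 22.5% (exact test, adjusted p = 0.0673). The motif AGGTCA of ROR factors, which include the lineage factor of Th17 cells, stood at 11.5% and 11.97%. The motif AGATAA, bound by the family of the Th2 factor, stood at 11.4% and 14.0%. STAT sites, TTC and GAA with 3 bases between, were found in 9.89% and 8.74%. Their difference of 1.15 points was 4.23 without Th17 library 3 and −0.114 without Th9 library 1. The IRF motif was found in 3.48% and 3.90%. None of these passed the test. The ATF/CREB site, TGACGTCA, was found in 2 members and 8 other distal regions.

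**Figure D5:**
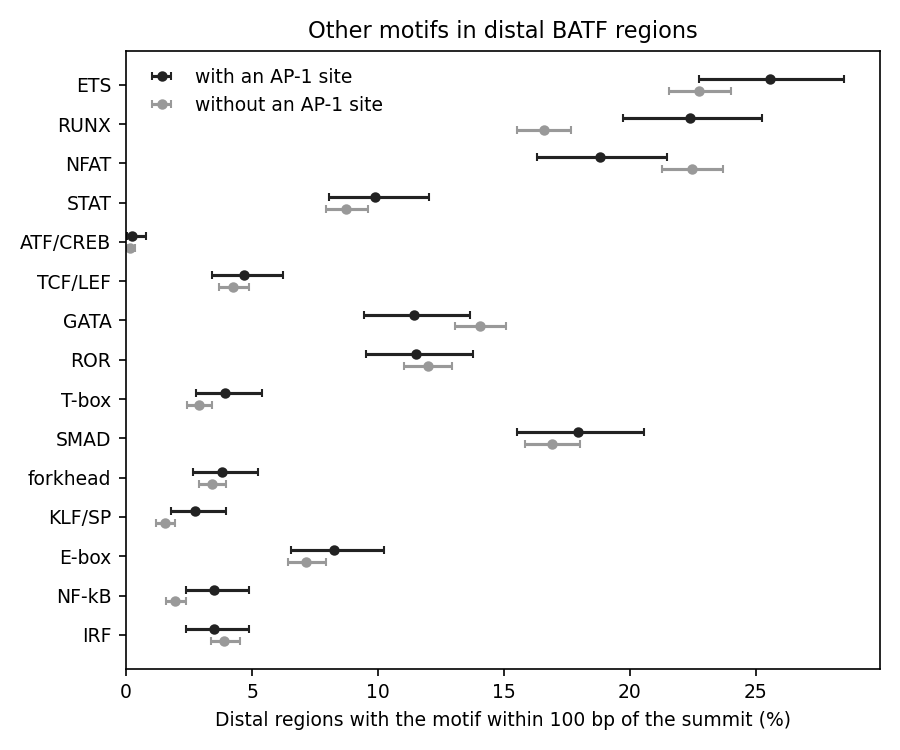
Share of distal BATF regions with each of 15 motifs within 100 bp of the summit, for the 920 regions with (black) and the 4610 without (grey) an AP-1 site, with exact 95% binomial intervals. RUNX, at 22.4% against 16.6%, is the motif whose intervals stand farthest apart.

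Among members, site class was set against fold enrichment within each library. The standard errors (SE) and p-values of these tests cover the spread between peaks of a library, not the spread between libraries. Of 15 tests 5 passed, 4 of them in Th17 library 3. There, members with 2 or more sites had a median of 7.90 against 6.79 with 1 site (difference in mean log2 0.18 ± 0.04 SE, permutation test, adjusted p = 0.00135). Members with a site within 25 bp had 7.34 against 6.78 (0.10 ± 0.03, permutation test, adjusted p = 0.0270). Those with A before and T after differed by 0.14 ± 0.06 (permutation test, adjusted p = 0.0448) and those with an IRF core by 0.16 ± 0.07 (adjusted p = 0.0482). In Th17 library 4, A before and T after gave 9.21 against 7.57 (0.38 ± 0.22, 12 and 67 peaks, permutation test, adjusted p = 0.0448), and no class passed in a Th9 library. The 12 peaks include the array nearest to Gmpr at 46.3. Without regions of 4 or more sites, chosen after seeing the data, this class had too few peaks to be tested, and 2 of the other 14 tests passed, for more sites and for sites within 25 bp in Th17 library 3. There the differences for A before and T after (0.129) and the IRF core (0.162) stayed near those with the arrays. None of the 15 passed with −log10 q in place of fold enrichment, and 2 passed with IgG only. With input only, 13 tests had enough peaks and none passed, and A before and T after in Th17 library 4 was not among them. In Th17 library 3 the difference for the IRF core stayed similar, at 0.188 with input only and 0.153 with IgG only against 0.161, and that for A before and T after fell from 0.137 to 0.0897 and 0.0996. For more sites it fell from 0.179 to 0.138 and 0.132, and for sites within 25 bp it was 0.0775 and 0.111 against 0.103.

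Members lay about equally in introns (442, 48.0%) and between genes (458, 49.8%), with 20 in exons. Other distal regions lay in introns in 41.4% and between genes in 56.0%. The median distance to a start site was 28770 bp in members and 48491.5 bp in the others. A start site lay within 10 kb of 21.2% of members and 15.1% of the others, and none lay within 100 kb of 17.3% and 33.4%. Few members lay in repeats. More than 50% of the window was masked in 5.54% of members and 19.7% of the others, and 8.19% of member sites were masked, against 17.9% of all AP-1 sites of the genome. The median GC content was 43.8% and 40.3%.

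The 920 members were assigned to 845 genes by the nearest curated start site at any distance, 3.23% of all 26180 genes, while 4334 genes (16.6%) were nearest to any BATF region. Of the 845 genes 784 had 1 member. Trib2, a pseudokinase gene, had 5, and Tet2, which encodes an enzyme that oxidises methylated DNA, and Macroh2a3 had 4 each. Rbpj, the DNA-binding partner of Notch, and Themis, a T cell signalling protein, had 3 each. The lists of T cell genes below were chosen for their role, and long genes or genes in wide intergenic stretches are near more regions, so the shares are descriptions without a test. Members given below as called in a single cell type were each called by a single library, and the other library of that cell type did not call them. The exception is 1 of the 2 members at Bach2, which both Th17 libraries called.

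Of 22 genes of AP-1 and its partner factors, 6 were nearest to a member (27.3%) and 10 to any BATF region, the 6 being Jdp2, Bach2, Batf3, Irf8, Fos and Irf4. Bach2, a repressor at AP-1-like sites, had 2 members far upstream, both called in Th17 cells only. Jdp2, a repressive AP-1 protein, had a member 5880 bp upstream of its start with a −log10 q of 25.5, and Batf3 one in its intron at 6253 bp, each called in Th17 cells only. The member nearest to Irf4, whose protein is a BATF partner, lay 47112 bp from the start. Only Th9 library 2 called it, with a −log10 q of 2.85.

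Of 40 lineage factors 11 were nearest to a member (27.5%) and 20 to any BATF region. Gata3, the lineage factor of Th2 cells, had one 219545 bp from its start, called by Th9 library 1 alone (−log10 q 14.4). Klf2, a factor of quiescence and homing, had one called in both cell types (mean −log10 q 11.8), as did Lef1, a partner of β-catenin, with the IRF core directly beside a site. Ahr, the aryl hydrocarbon receptor gene, had one member called by Th17 library 3 alone and another, 28038 bp upstream, called by Th9 library 1 alone. Stat5b, which encodes a transducer of IL-2 signals, had one in its intron, called by Th9 library 1 alone. Tcf7, Ets1, Tbx21, Smad3, Tox and Nfatc1 had members with a −log10 q of at most 7.04.

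Of 24 cytokine genes 4 were nearest to a member (16.7%) and 9 to any BATF region. After Il13, the highest −log10 q was 10.5 at Ifng, 29796 bp downstream of its start, in Th17 cells only. Il6 had a member on either side, 1 called by Th9 library 1 alone and 1 by Th17 library 3 alone. Il10 had one upstream, called by Th17 library 3 alone (−log10 q 5.02). Of 23 cytokine receptor genes 5 were nearest to a member (21.7%) and 8 to any region. Il4ra had one 12728 bp upstream in Th17 cells only (−log10 q 15.3). Il1r1, the receptor of a Th17 culture cytokine, and Il7r had one each in Th17 cells only, and Il1rl1 and Il6st in Th9 cells only.

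Of 22 genes of costimulation and checkpoints 6 were nearest to a member (27.3%) and 15 to any region. Icos had 2 downstream, both called by Th17 library 3 alone, with a −log10 q of 18.3 and 8.14. Cd226 had one called by Th17 library 3 alone (16.9), 238212 bp away in an intron of Dok6. Havcr2, which encodes TIM-3, had one in its intron, called by Th9 library 1 alone (12.6). Cd44, Tnfrsf9 and Lag3 had weaker members. Among homing genes, Ccr2, with the IRF core directly beside the site, Itga4, Ccr6 and Itgav were nearest to members called in Th17 cells only. Ccr6, a marker receptor of Th17 cells, had its member 9069 bp upstream with 2 AP-1 sites.

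Of 28 genes of T cell receptor signalling 5 were nearest to a member (17.9%) and 10 to any region. Socs1, a feedback inhibitor of cytokine signals, had one with 3 AP-1 sites 30838 bp downstream in Th17 cells only (−log10 q 12.99). Fyn, a kinase, had one in its intron with the core 4 bases away, Dusp6 had 2 and Dusp4 had 1, all in Th17 cells only, and Cblb one in Th9 cells only. Of 20 genes of other blood cells none was nearest to a member, and 3 were nearest to any BATF region. Over all genes the shares were 3.23% and 16.6%, and a list of 20 is too short to show a share below the first.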

How the data were processed

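Processed peak lists of 4 BATF libraries (12 lists) were used. According to the submitters' notes and the study's methods, the authors trimmed reads with Trim Galore 0.4.3, aligned them with Bowtie2 (mm10) and called peaks of each library with MACS2 2.1.0, keeping duplicates, against IgG, input or both. The control of a list was read from its file name alone. The peak names inside every list name the input, so the control of the IgG lists and of the joint lists used in the main analysis is not certain. Each deposited peak has a fold enrichment (a ratio over local background) and −log10 p and −log10 q values, with the summit offset. Reads were not used here, the depth of single libraries is known only approximately from the methods, and peak number limits precision. Genes were curated transcripts of RefSeq annotation release 108.20200622, and sequence and masking came from GRCm38.

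Members, motifs and gene lists were chosen with earlier results of these data known. Tests were two-sided Fisher's exact tests and, for fold enrichment by site class, permutation tests with 100000 resamples in classes of at least 10 peaks, adjusted by Benjamini-Hochberg within each family. A threshold of 0.05 was used. Regions named were those called in the most libraries, the 3 strongest per library (ties going to the region called in more libraries, then to the higher mean −log10 q), those with the most sites, those with an IRF core and those nearest to listed genes; results for an item among these are left out. Calculations were tested on simulated data, with Python 3.11.15, numpy 2.4.6, scipy 1.17.1 and matplotlib 3.10.9.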

Additional observations from a re-analysis of the deposited data

How the results depend on the processing

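Alternatives were each single control, a minimum −log10 q of 5, each library left out, 10 kb from start sites, predicted transcripts, 50 bp windows, reciprocal overlap, unmasked sequence and, chosen after seeing the data, no regions of 4 or more sites. The shares of regions called again, the position of sites, A before and T after the site, and both IRF arrangements kept their direction and their side of the threshold under all of these, and so did more than 1 site except in 50 bp windows (11.8 points, exact test, adjusted p = 0.0997). Some sizes moved. In points, sites close to the summit went from 14.9 to 9.43 in 50 bp windows, called in both cell types went from 8.94 to 4.41 without Th9 library 1, and without Th17 library 3 A before and T after went from 5.12 to 8.34 and the IRF core beside the site from 2.53 to 4.37. The other classes of flanking bases were not tested again. No paired analysis was possible because no replicate number occurs in both cell types (1 and 2 in Th9, 3 and 4 in Th17). The cause of the changes below was not tested, except that fewer peaks enter by construction when a library is left out.

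With single libraries left out, members numbered 324 to 897 and co-motifs past the threshold 0 to 4. There were 1 such motif in 50 bp windows, 0 at −log10 q of at least 5 and 1 at unmasked summits. Differences that changed sign, were in points −0.777 for ETS and −1.09 for SMAD (50 bp), −0.326 for TCF/LEF (−log10 q), and, over the libraries left out, −0.114 to 4.23 for STAT and −0.111 to 0.182 for ATF/CREB (lowest without Th9 library 1), −0.828 to 1.30 for SMAD, −1.38 to 1.07 for forkhead, −0.227 to 1.32 for KLF/SP and −0.725 to 2.28 for E-box (lowest without Th17 library 3). Without Th9 library 2, NFAT and KLF/SP passed.

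Of the 15 class tests, 0 passed with −log10 q and 2 with IgG only. With input only 13 tests were run, since IRF cores in Th9 library 2 and A before and T after in Th17 library 4 had too few peaks. Of these 13 tests 0 passed. Without regions of 4 or more sites 2 of 14 passed, and A before and T after in Th17 library 4 again had too few peaks. Signs changed for more sites in Th9 library 1 (−0.248 in −log10 q, −0.0815 in log2 with IgG only), for A before and T after in Th9 library 1 (−0.0381) and for sites within 25 bp in Th9 library 2 (−0.0200), both with IgG only. Genes nearest to a member numbered 712 within 100 kb and 823 among protein-coding genes, against 845. A region absent from a list is not shown to be unbound.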
